A study of Mus musculus with 4 samples.

Results

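Microglia of mice killed 6 h after whole-brain irradiation were compared with microglia of sham mice taken at the same time. The comparison covered every gene with at least 100 unique molecular identifiers (UMIs, tags that count each captured transcript once) summed over the kept barcodes of both libraries. It held 8798 of the 27998 genes in the files, of which 15707 had any UMI at 6 h. A barcode, which stands for a cell, was kept with at least 1000 UMIs, at least 500 detected genes and at most 10% of its UMIs from mitochondrially encoded genes. This left 4638 of the 8369 kept cells of the whole series. To look past the responses already well known for radiation, 3 gene lists were set aside (p53 targets, cytokines with NF-kB genes, and interferon response genes). They held 215 of the compared genes, and the other 8583 are called the remaining genes.

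All mice were C57BL/6, and the age recorded for every library, those of 1 week included, is postnatal day 21. It is read here as the age at the dose, so that mice taken at 1 week were older. The irradiated group received 1 dose of 8 Gy to the whole brain, and the sham group received none. Each side was a single droplet library (10x Genomics Chromium) that pooled 4 mice, and the same design was deposited for 1 week after the dose. The labels give the source as brain, whereas the design text speaks of the hippocampus, so the region is not settled here.

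With 1 library on each side there was no replicate check, and the difference between mice could not be measured. No test was therefore made. Levels are given as CPM, the UMIs of a gene scaled to the library total. A difference is the log2 ratio of the irradiated over the sham CPM at 6 h, followed in parentheses by its exact conditional binomial 95% interval, which covers counting error only. A gene is called higher or lower here when it lay at least 1.5-fold from sham with the interval on 1 side of 0. In summed libraries, fewer cells of a type and less RNA per cell cannot be told apart.

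Microglia are the resident macrophages of the brain, and they survey the tissue with motile processes whose response to released ADP runs through the receptor P2ry12. Ionizing radiation breaks DNA. The breaks activate the kinases ATM and Chek2, which stabilise the transcription factor p53, and p53 then switches on genes for cell cycle arrest, cell death and metabolism. P53 binds DNA as a tetramer, on 2 copies of a short palindromic half-site. Each copy has 3 purines, a C, 2 bases that are A or T, a G and 3 pyrimidines.

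The sham library kept 2652 of 2670 barcodes with 9736149 UMIs, and the irradiated library kept 1986 of 2023 with 7365977 UMIs. Their median depths were 3532.5 and 3512.5 UMIs per cell, mitochondrial UMIs made up 1.19% and 1.24%, and 12 barcode sequences occurred in both. All 9 microglia markers were detected in both libraries, and every kept cell of either held at least 1 of their UMIs. Summed, these markers stood at 52099 CPM in sham and 41451 CPM in irradiated cells. For other cells, 7 of 8 neutrophil markers were at 0 in both libraries, and monocyte and border macrophage markers summed to 33.7 and 41.6 CPM in sham against 37.5 and 43.0 CPM in irradiated cells. Markers of other brain and blood cells were at 1 to 2 UMIs for B and T cells, and between 18 and 466 UMIs per library for neurons, oligodendrocytes and endothelium. Oligodendrocyte precursor markers went from 1 to 46 UMIs (6.24 CPM in irradiated cells), and astrocyte markers from 149 to 259 CPM. Barcodes with at least 3 UMIs of any other-type marker numbered 551 in sham (20.8%) and 600 in irradiated cells (30.2%). Astrocyte markers were mostly Slc1a3 (1389 and 1778 UMIs), with Gjb6 and Aqp4 at 0 in sham and at 3 and 4 UMIs in irradiated cells. The neutrophil marker that was detected, Csf3r, had 1491 and 1288 UMIs, spread over 1100 sham and 920 irradiated cells. Whether the barcodes with at least 3 other-type UMIs were other cell types was not tested. Leaving these barcodes out ended the call of Tubb4b (0.54) and of no other gene named below that could still be measured. It moved the median of 1 list, the interferon genes, beyond the interval of its members.

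Promoter sequences are shown for the genes among the 20 highest and 20 lowest remaining genes in which the p53 half-site occurred before the start, since p53 is the factor the dose is known to activate. Of the 20 highest, 15 were found in the RefSeq promoter table (GRCm38.p6, 250 bases before to 50 after the annotated start), and so were 15 of the 20 lowest. The half-site was searched on both strands, which for a palindrome is the same search. Capitals mark the matches and only the 250 bases before the start are printed. The Cdkn1a promoter, chosen after its values were seen, is given as the reference, because it alone among the measured p53 targets in the table held a pair of half-sites close together (12 bases apart).
1700007K13Rik, chr2:28466325-28466574, minus strand: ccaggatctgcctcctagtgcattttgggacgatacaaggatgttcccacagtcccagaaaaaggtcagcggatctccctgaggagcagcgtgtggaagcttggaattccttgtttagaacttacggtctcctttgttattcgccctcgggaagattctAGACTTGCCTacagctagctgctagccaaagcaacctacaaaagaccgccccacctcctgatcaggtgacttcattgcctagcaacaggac
Celf5, chr10:81482700-81482949, minus strand: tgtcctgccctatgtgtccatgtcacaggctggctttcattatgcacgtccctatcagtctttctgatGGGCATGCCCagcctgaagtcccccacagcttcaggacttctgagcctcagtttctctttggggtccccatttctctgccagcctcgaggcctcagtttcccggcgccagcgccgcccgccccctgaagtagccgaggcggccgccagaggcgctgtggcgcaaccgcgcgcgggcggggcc
Bank1, chr3:136326067-136326316, minus strand: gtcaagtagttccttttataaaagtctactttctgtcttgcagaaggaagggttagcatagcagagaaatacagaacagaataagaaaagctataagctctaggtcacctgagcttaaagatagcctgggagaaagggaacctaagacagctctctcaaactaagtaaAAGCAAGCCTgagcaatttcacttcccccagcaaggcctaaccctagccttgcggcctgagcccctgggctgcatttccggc
Cdkn1a, chr17:29090729-29090978, plus strand: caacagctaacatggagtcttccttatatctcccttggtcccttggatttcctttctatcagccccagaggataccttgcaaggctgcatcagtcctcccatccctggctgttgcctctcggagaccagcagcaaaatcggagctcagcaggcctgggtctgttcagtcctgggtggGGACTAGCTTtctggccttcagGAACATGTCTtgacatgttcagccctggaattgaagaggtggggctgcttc

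In 1700007K13Rik the match shown began 91 bases before the start, in Celf5 182 and in Bank1 82 bases before it. 1700007K13Rik held another match that began 30 bases after the start, outside the printed bases. 1700007K13Rik and Celf5 were higher and Bank1 lower in irradiated cells, and nothing about direction is read from so few matches. A half-site was present in 30.5% of the 59 measured p53 targets with a promoter in the table, and in 32.4% of the 37 higher among them. Among the remaining genes it was present in 10.7% of the 429 higher, 8.51% of the 517 lower and 7.59% of the 5705 called neither, and in 9.55% of all 27025 promoters of the table, always over the whole 300 bases. Among those remaining genes that were at least 4-fold higher the share was 13.3% of 45. A match describes letters in this window and not a bound site.

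Across all 8798 genes, 703 (7.99%) were higher and 699 (7.94%) lower in irradiated cells. Of the remaining genes, 601 (7%) were higher and 688 (8.02%) lower. The 2 directions differed in size. Over all genes, 320 (3.64%) were at least 2-fold higher and 135 (1.53%) lower, and 102 (1.16%) were at least 4-fold higher and 2 (0.0227%) lower. At least 2-fold there were 244 higher (2.84%) and 132 lower (1.54%) remaining genes, and at least 4-fold 63 higher (0.734%) and 2 lower (0.0233%). Differences of 4-fold or more were thus nearly all gains. For scale, the sham library of 1 week set against that of 6 h, which also differ in age, gave 169 higher (1.98%) and 304 lower genes (3.56%) of 8544. The median of the remaining genes was -0.07, that of the genes set aside 0.52. The even split in number depended on the scaling, because median-of-ratios factors moved all genes by 0.06 and gave 819 higher and 537 lower genes, or 60.4% higher among those called, against 50.1% by library total.

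**Figure D1:**
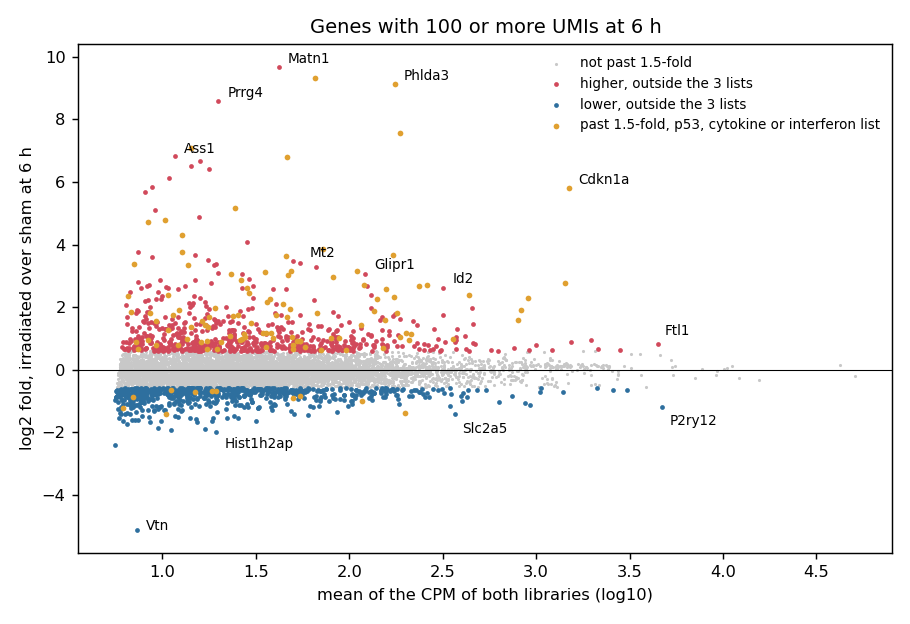
Each point is 1 of the 8798 genes, with the mean CPM of both 6 h libraries on a log10 scale across and the log2 ratio of irradiated over sham up. Red and blue mark remaining genes called higher and lower, orange marks called genes of the 3 lists set aside, and genes with 0 sham UMIs are drawn with 3 in their place. The points reach 9.67 (Matn1) upward, and downward only Vtn (-5.12) and Ube2c (-2.42) lie below -2.

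Matn1 encodes matrilin 1, a protein of the cartilage matrix, and its ratio was the largest, p53 targets included, although it rests on 1 sham UMI and genes with 0 sham UMIs enter at a floor of 3. By the lower bound of the interval the p53 target Phlda3 (8.02) and D630023F18Rik (7.46) lay above it. The gene (ENSMUSG00000040533) lies on chromosome 4 from 130944385 to 130955475 of mm10. It went from 1 UMI in sham to 618 after the dose, or 0.103 and 83.9 CPM, a log2 ratio of 9.67 (7.19 to 14.98). The 618 UMIs came from 504 cells with at most 5 in any of them, so the gain was spread over many cells. At 1 week the gene stood at 0.705 CPM in sham and 18.5 CPM in irradiated cells, below its 6 h level but above both sham libraries.

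4 further genes were at 0 or 1 UMI in sham cells. With a minimum of 100 UMIs over both libraries, a gene absent from sham could enter the comparison only if irradiated cells held it. Prrg4, a transmembrane protein with a vitamin K-dependent Gla domain (chromosome 2, 104830741 to 104849876), went from 1 UMI to 293, a log2 ratio of 8.597 (6.11 to 13.91). 1700007K13Rik, also known as Pierce1 and described elsewhere as a p53 target (chromosome 2, 28462001 to 28466332), had 0 and 209 UMIs and was at least 92.1-fold higher against a floor of 3 UMIs per library. Fam198b, which encodes a Golgi-associated kinase-like protein (chromosome 3, 79884533 to 79946280), had 0 and 160 UMIs. It was 70.5-fold higher with that floor, and the lower bound of its log2 ratio was 5.82. Sham microglia thus held at most 1 UMI of each of these 3. Celf5, an RNA-binding protein of the CELF family known mainly from neurons (chromosome 10, 81459227 to 81482709), had 0 and 130 UMIs. It was 57.3-fold higher with that floor, and the lower bound of its log2 ratio was 5.52. An antisense model within Celf5, Gm16105, had 17 UMIs in irradiated cells and 0 in sham. At 1 week irradiated cells held 0 CPM of Celf5 and 1.17 CPM of 1700007K13Rik, against 5.70 CPM of Prrg4.

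Ass1, argininosuccinate synthase, which makes the precursor of arginine (chromosome 2, 31470207 to 31520672), went from 2 to 171 UMIs, a log2 ratio of 6.82 (4.95 to 9.88). Cpt1c, a carnitine palmitoyltransferase of the endoplasmic reticulum (chromosome 7, 44959372 to 44974851), went from 3 to 116 UMIs, a log2 ratio of 5.68 (4.09 to 7.97). Both are described elsewhere as p53 targets, although the list set aside did not hold them. The same holds for Glipr1, a secreted protein of the CAP family (chromosome 10, 111985448 to 112002631), which was the most abundant of the 20 at 26.1 and 217 CPM, a log2 ratio of 3.05 (2.86 to 3.25). It was still at 75.04 CPM in irradiated cells at 1 week, against 23.4 CPM in sham.

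Baiap2, an adaptor that links small GTPases to actin (chromosome 11, 119942763 to 120006782), went from 12.5 to 121 CPM, a log2 ratio of 3.27 (2.99 to 3.55). Rab7b, a small GTPase of late endosomes and the Golgi (chromosome 1, 131688695 to 131715439), went from 10 to 225 UMIs (4.89, 3.99 to 5.97). Kank3, of the KN motif and ankyrin repeat family (chromosome 17, 33810519 to 33822918), went from 80 to 677 UMIs (3.48, 3.15 to 3.84). Kank3 overlaps the ribosomal protein gene Rps28 on the other strand, which had 18815 and 16015 UMIs, and whether the counting used strand is not given in the sources used here. Cep170b, a centrosomal protein, was at 6.68, Glipr2, a Golgi protein, at 6.42, and the membrane protein Pqlc3 at 5.11. Irak1bp1, a regulator of interleukin 1 receptor signalling, was at 3.68. The noncoding RNA Abhd11os was at 4.08 with 31 and 396 UMIs, and it overlaps Abhd11 on the other strand (196 and 303 UMIs).

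The last 4 of the 20 act at the cell surface or bind metals. Lilrb4a and Cd300lf, inhibitory receptors of the immunoglobulin family, went from 2.88 to 32.3 CPM and from 3.39 to 34.5 CPM (log2 ratios 3.49 and 3.35). Vcam1, an adhesion molecule for integrins, went from 3.39 to 35.2 CPM (3.37, 2.85 to 3.94). Mt2, a metallothionein that binds zinc and copper, went from 9.35 to 99.9 CPM (3.42, 3.10 to 3.75). The spread over cells differed within the 20. After thinning each cell to 2000 UMIs, which left out 93 shallower sham and 90 shallower irradiated cells, the variance over the mean (Fano factor, 1 for pure counting) was between 1.02 (Irak1bp1) and 1.53 (Vcam1) for 18 genes in irradiated cells, against 2.28 for Lilrb4a and 3.19 for Mt2. Mt2 was thus uneven, with 736 UMIs in 246 cells and up to 27 in 1 cell, and its counting interval is too narrow for the sampling of cells.

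All 20 genes were also higher when the irradiated library was set against the sham library of 1 week, from older mice. Over all 8193 genes measured in that comparison 11% were higher. It shares the irradiated library by which the 20 were chosen, so nothing is read from the agreement. At 1 week 10 of the 20 were higher in irradiated than in sham cells and 1, Lilrb4a, was lower. Over the 8198 genes with at least 100 UMIs at that time, 2.59% were higher and 2.02% lower. The 20 were not held to that minimum, so their share is not like for like. For example, 1700007K13Rik was called higher there on 0 sham and 9 irradiated UMIs.

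**Figure D2:**
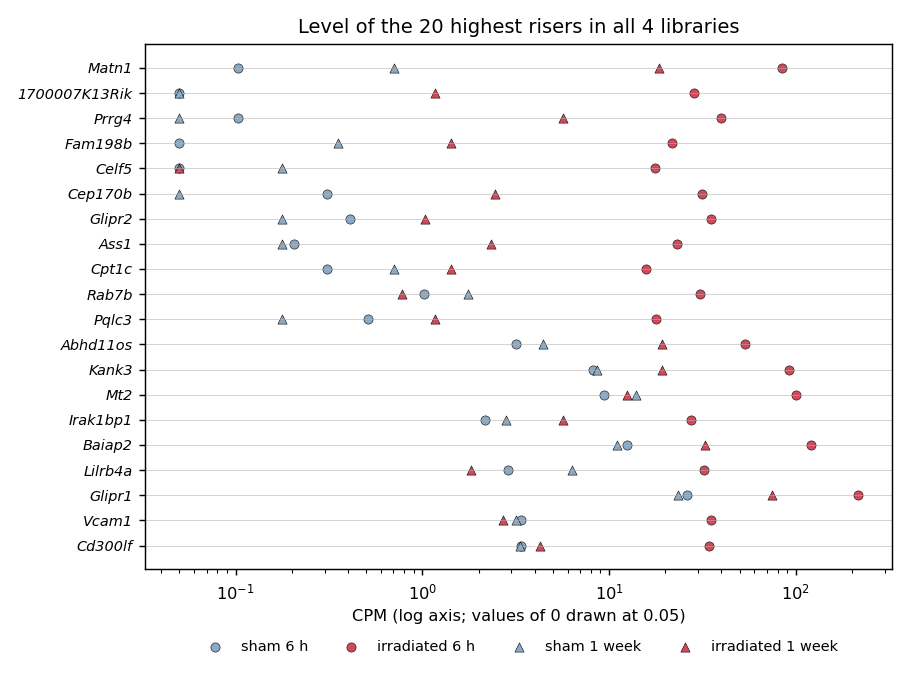
CPM on a log axis of the 20 highest remaining genes in each of the 4 libraries, with circles for 6 h, triangles for 1 week, blue for sham and red for irradiated. Irradiated cells at 6 h hold the rightmost point in every row, and that library was used to choose the genes. Among the irradiated 1 week triangles Glipr1 (75.04 CPM) and Baiap2 (32.7 CPM) reach furthest right, and Matn1 is at 18.5 CPM.

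In the other direction the differences were smaller. Slc2a5, a fructose transporter that microglia express in the brain (chromosome 4, 150119283 to 150144169), went from 538 to 199 CPM, a log2 ratio of -1.44 (-1.52 to -1.35). P2ry12 (chromosome 3, 59216272 to 59262871) went from 63955 to 21255 UMIs, or 6569 to 2886 CPM (-1.19, -1.21 to -1.16). Both were lower against the sham library of 1 week too, a comparison that shares the irradiated library by which they were chosen. At 1 week neither was lower in irradiated cells, with Slc2a5 at 717 CPM against 572 and P2ry12 at 6950.1 against 5575. The Fano factor of Slc2a5 was 1.24 in sham and 1.36 in irradiated cells, and that of P2ry12 was 2.95 and 3.58, so its counting interval is too narrow for the sampling of cells.

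Gpr165, an orphan G protein-coupled receptor, went from 48.3 to 15.3 CPM (-1.65). Ramp1, the subunit that makes the calcitonin receptor-like receptor respond to CGRP (chromosome 1, 91179822 to 91225196), went from 124 to 48.5 CPM (-1.36, -1.53 to -1.19) and was still at 56.1 CPM against 125 CPM in sham at 1 week. Slco4a1, an organic anion transporter, was at -1.89. Klrd1, which encodes CD94 of natural killer cells, went from 146 to 35 UMIs (-1.66). It was spread over 136 sham cells, while 5 of the 7 natural killer cell markers, Ncr1 and Nkg7 among them, were at 0 in both libraries.

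Galnt12, which starts O-linked sugar chains, went from 88.0 to 31.9 CPM (-1.46), and Hacd4, a dehydratase of very long fatty acid synthesis, from 37.8 to 13.03 CPM (-1.54). Bank1, a signalling scaffold best known from B cells, went from 713 to 203 UMIs (-1.41). It overlaps the antisense model Gm43603, which moved from 533 to 165 UMIs, so the 2 cannot be told apart without strand. Pcp4, a regulator of calmodulin, was at -1.64, the membrane adaptor Pacsin1 at -1.93, the secreted ribonuclease Rnase6 at -1.55 and Tmem52 at -1.50.

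The lowest value of all, Vtn at -5.12, rested on 1 cell. Vtn encodes vitronectin, which pericytes make in the brain, and 137 of its 138 sham UMIs came from a single barcode. Pericyte and smooth muscle markers summed to 181 UMIs in sham, 176 of them in 1 cell, and 10 in irradiated cells.

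The other 6 of the 20 belong to division, chromosomes or histones. Top2a, the topoisomerase of dividing cells, went from 144 to 30 UMIs (-1.86, -2.48 to -1.29), which came from 20 sham and 10 irradiated cells. Ube2c, the ubiquitin-conjugating enzyme of the anaphase-promoting complex, went from 92 to 13 UMIs (-2.42). In sham cells the Fano factor was 4.87 for Top2a and 3.06 for Ube2c, so their counting intervals are too narrow for the sampling of cells. Ncaph, a condensin subunit, and Cdca7 were at -1.67 and -1.54. The histone genes Hist1h2ap and Hist1h2ae were at -1.998 and -1.58. Of all 20, 17 were also lower against the sham library of 1 week, and the exceptions were Vtn, Top2a and Hist1h2ae (-0.38, 0.95 and -0.09). Over all 8193 genes measured in that comparison 7.92% were lower. It shares the irradiated library by which the 20 were chosen, so nothing is read from the count.

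**Figure D3:**
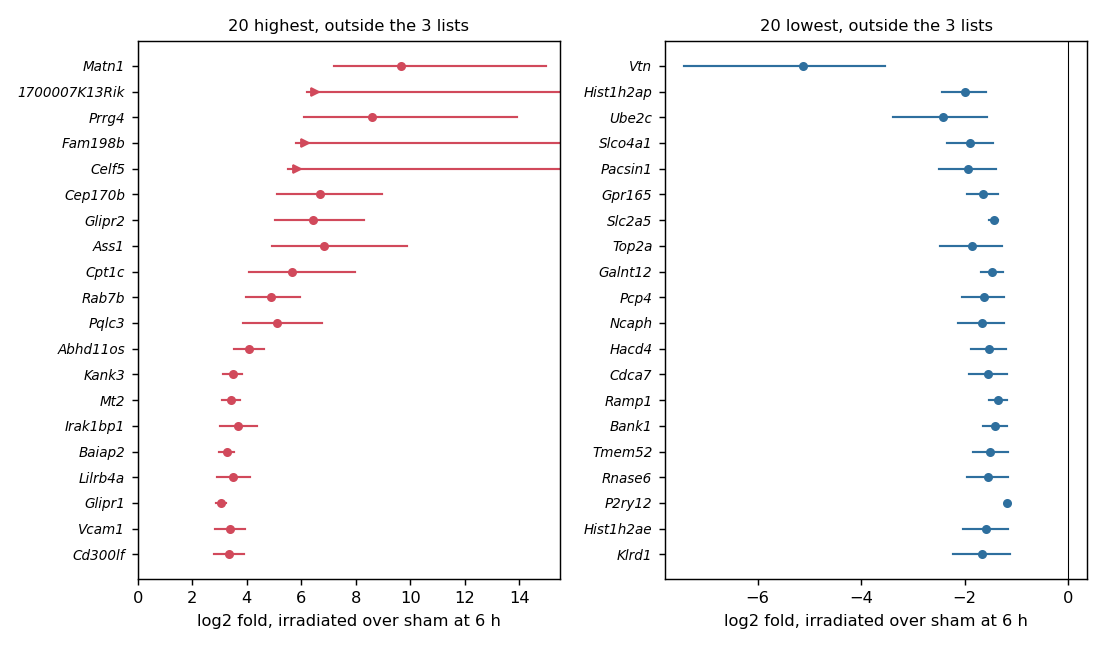
Log2 ratio of irradiated over sham at 6 h for the 20 remaining genes with the highest lower bound (left) and the 20 with the lowest upper bound (right), with lines for the 95% counting interval. Triangles mark genes with 0 sham UMIs, drawn with 3 in their place and with no upper bound. Ratios run from 3.05 (Glipr1) to 9.67 (Matn1) on the left and from -1.19 (P2ry12) to -5.12 (Vtn) on the right.

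By absolute level the picture was another. The remaining genes that gained most CPM were Malat1, a nuclear noncoding RNA (40254 to 44440.4 CPM, 0.14), and Ftl1, the light chain of the iron store ferritin (3220.3 to 5734 CPM, 0.83). The tetraspanins Cd81 (0.45) and Cd9 (0.93), the ferritin heavy chain Fth1 (0.62), the lysosomal protease Ctsb (0.48), the lysosomal membrane protein Laptm5 (0.50) and the ribosomal protein Rps19 (0.67) followed. Of these 8, Ftl1, Cd9, Fth1 and Rps19 were past 1.5-fold, and the call of Fth1 ended against the sham library of 1 week (0.48). Ferritin was uneven over cells, with a Fano factor of 6.76 for Ftl1 and 6.39 for Fth1 in irradiated cells against 3.13 and 2.12 in sham.

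Among the largest losses of CPM were those of Cst3, the protease inhibitor cystatin C (54824 to 47596 CPM, -0.20), P2ry12 and Tmsb4x, an actin-binding peptide (-0.27). Csf1r, the receptor microglia need to survive (-0.56), the protease Lgmn (-0.28), the Fc receptor-like Fcrls (-0.65) and the selenium carrier Sepp1 (-0.66) came next. P2ry12, Fcrls and Sepp1 were past 1.5-fold, and the call of Sepp1 ended against the sham library of 1 week (-0.38). Among the genes named here the loss was therefore unequal, from 1.15-fold in Cst3 to 2.28-fold in P2ry12.

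Gene lists were read by the number of their measured members called, beside 7.99% higher and 7.94% lower over all genes. Of the lists set aside, p53 targets had 46 of 73 members higher and 2 lower, cytokines 17 of 47 higher and 6 lower, and interferon genes 39 of 95 higher and 3 lower. Against the sham library of 1 week cytokines had 15 of 47 higher and 10 lower, and their median went from 0.20 to 0.02. Without the barcodes that held at least 3 UMIs of other-type markers, the interferon count was 20 of 85 higher and 4 lower, and the median went from 0.38 to 0.13. Csf3r and Slc1a3 supplied many of those UMIs, and whether the barcodes left out were other cell types was not tested. Interferon genes also differed between the 2 sham libraries, with a median of -0.44 at 1 week over 6 h.

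**Figure D4:**
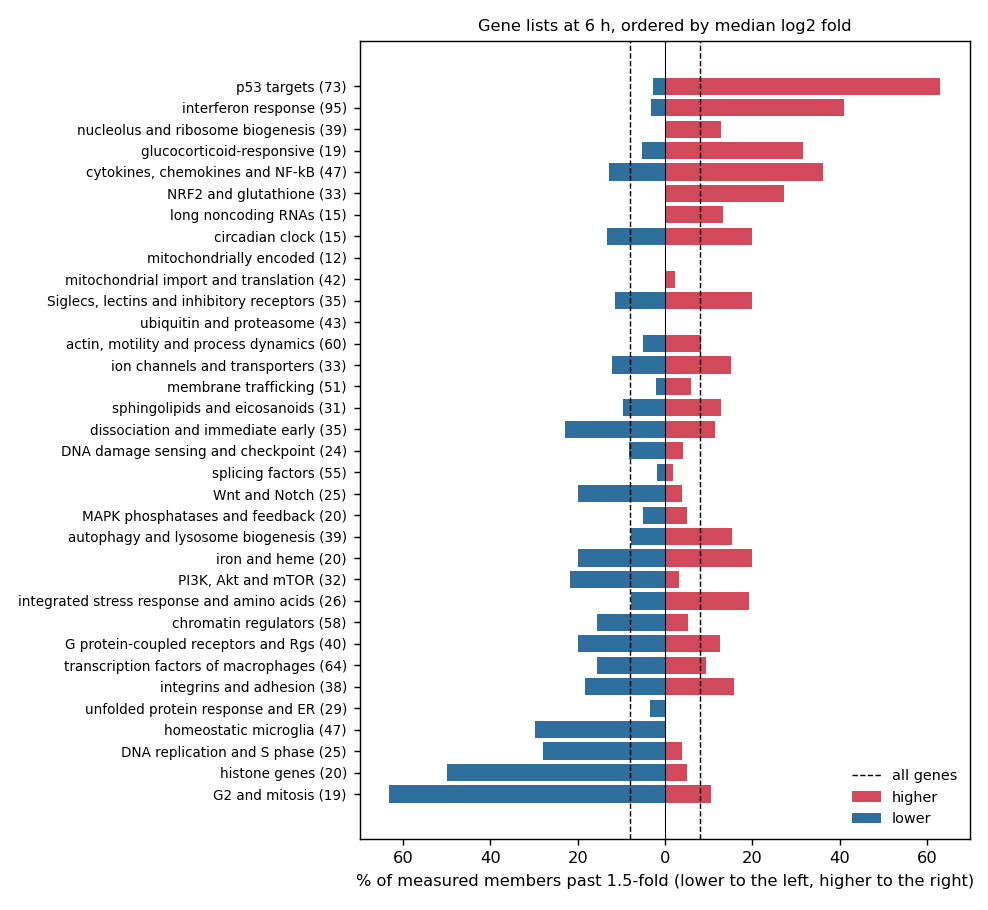
Share of the measured members of each gene list (their number in parentheses) that were called higher (red, right) or lower (blue, left) at 6 h, ordered by the median log2 ratio, with dashed lines at the 7.99% and 7.94% of all genes. Division and histone lists lie lowest and p53 targets highest, with 63.2% of G2 and mitosis genes lower and 63.0% of p53 targets higher.

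Homeostatic microglia genes, which mark the resting state, had 14 of 47 members lower, 0 higher and a median of -0.31. Besides Slc2a5 and P2ry12, Sall1, the transcription factor of microglial identity, went from 141 to 65.3 CPM (-1.11). The lens crystallin gene Crybb1 went from 1279 to 577 CPM (-1.15) and Rtn4rl1, a receptor of the Nogo family, from 95.3 to 42.6 CPM (-1.16). Against the sham library of 1 week 16 members were lower and 0 higher, but the call of Crybb1 ended (-0.39).

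G protein-coupled receptors and their regulators split, with 5 of 40 higher and 8 lower. The receptors for the complement fragments C5a and C3a were higher, C5ar1 from 146 to 489 CPM (1.75) and C3ar1 from 219 to 538 CPM (1.30). The chemokine receptor Ccr6 was higher as well (1.82, 31 and 83 UMIs). Lower were, besides P2ry12 and Gpr165, the adhesion receptor Adgrg1 (348 to 189.5 CPM, -0.88) and Gpr155 (-1.14), while the fractalkine receptor Cx3cr1 stayed within 1.5-fold (-0.17).

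Siglecs, lectins and inhibitory receptors had 7 of 35 higher and 4 lower. Besides Lilrb4a and Cd300lf, the SLAM receptors Slamf8 (1.74) and Slamf9 (1.71) were higher, while Siglecf (-1.04) and the C-type lectin Clec4a3 (-0.83) were lower, the last not against the sham library of 1 week (-0.55). The adaptors Tyrobp (0.06) and Fcer1g (-0.06), through which activating receptors signal, were near sham. Among integrins and adhesion genes 6 of 38 were higher and 7 lower. The galectin Lgals3 went from 11.3 to 66.8 CPM (2.56, Fano factor 3.38 in irradiated cells), and the integrin chain Itga6 (-0.77) and the matrix protease Mmp14 (-1.02) were lower.

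Sphingolipid and eicosanoid genes had 4 of 31 members higher and 3 lower. Pla2g4a, the phospholipase that frees arachidonic acid, went from 71.3 to 228 CPM (1.68), and Alox5, which turns that acid into leukotrienes, from 20.1 to 53.6 CPM (1.41). Ptgs1, the constitutive cyclooxygenase, went from 849 to 416 CPM (-1.03), Tbxas1, thromboxane synthase, was at -0.72, and Hpgd, which inactivates prostaglandins, went from 477 to 214 CPM (-1.16). Of other leukotriene genes, added after their values were seen, Alox5ap was at -0.53, Lta4h at -0.02 and Ltc4s at 0.09. At 1 week Pla2g4a and Alox5 were at 1.57 and 1.47 in irradiated over sham cells, and Ptgs1 at 0.18.

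Genes of the NRF2 and glutathione list, which protect against oxidants, had 9 of 33 members higher, 0 lower and a median of 0.15. Ephx1, an epoxide hydrolase, went from 62 to 343 UMIs (2.87), and Hmox1, which breaks down heme, from 53.1 to 207 CPM (1.97). The transcription factor Nfe2l2 itself was at 0.93 and Osgin1, a target of it, at 1.44. Ephx1 also belongs to the p53 targets set aside. Iron handling was divided. The ferritin chains, Hmox1 and the heme-binding protein Hebp1 (1.21) were higher, while the iron exporter Slc40a1 (-0.61), the hepcidin regulator Hfe (-0.97) and the metal transporter Slc11a1 (-0.75) were lower, and the call of Slc40a1 ended against the sham library of 1 week (-0.52) and with median-of-ratios factors (-0.54).

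Among stress genes, 6 of 19 glucocorticoid-responsive genes were higher and 1 lower, including Mt1 (244 to 674 CPM, 1.47), Mt2, and Cdkn1a and Ddit4, which are p53 targets as well. The list's median of 0.25 became -0.08 against the sham library of 1 week. The integrated stress response list had 5 of 26 higher (3 against the sham library of 1 week) and 2 lower, with the transcription factors Cebpb at 1.03 and Atf3 at 1.60 and the p53 target Sesn2 at 3.02, whereas the serine synthesis enzymes Phgdh (-0.78) and Psat1 (-1.01) were lower. The call of Atf3 ended against the sham library of 1 week (0.46). Unfolded protein response genes had 0 of 29 higher and 1 lower, and their median was -0.23.

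Autophagy genes had 6 of 39 higher and 3 lower. They included genes that sense nutrients at the lysosome, namely Flcn (0.88), its partner Fnip2 (1.58) and the Rag GTPase Rragc (1.33), besides the mitophagy receptor Optn (2.34, 32 to 123 UMIs). The starting kinases Ulk1 (-0.84) and Ulk2 (-0.76) were lower, but neither was past 1.5-fold against the sham library of 1 week (-0.16 and -0.58). In the PI3K, Akt and mTOR list 1 of 32 was higher, the transcription factor Foxo3 (1.17), and 7 were lower, among them the kinase subunit Pik3cg (-0.77) and Rps6ka1 (-0.68).

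Of transcription factors, 6 of 64 were higher and 10 lower, or 6 and 5 with median-of-ratios factors and 5 and 16 of 63 against the sham library of 1 week. Id2, an inhibitor of basic helix-loop-helix factors, went from 90.3 to 547 CPM (2.60, 2.49 to 2.70), and against the sham library of 1 week it was at 1.57. Hif1a, the oxygen-sensing factor, was at 0.92. Klf2 (-0.87), Rreb1 (-0.83) and Tcf4 (-0.63) were lower, Tcf4 not with median-of-ratios factors (-0.57), and Mef2c, a factor of microglial identity, was at -0.50. Clock genes had 3 of 15 higher and 2 lower, with the repressor Ciart at 2.25 and the activator Arntl at -0.70, which was at -0.02 against the sham library of 1 week.

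Chromatin regulators had 3 of 58 higher and 9 lower, and 4 and 3 of 55 against the sham library of 1 week. The histone deacetylase Hdac4 went from 80 to 387 UMIs (2.68), with a Fano factor of 1.03. The Polycomb methyltransferase Ezh2 (-1.18) was lower. Of DNA damage sensing genes 1 of 24 was higher, the checkpoint kinase Chek2, from 129 to 277 UMIs (1.505), and 2 were lower. Damage sensors are known to be controlled mainly at the protein, which these counts do not measure.

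Histones and division genes were the lowest lists. Of 20 histone genes 10 were lower and 1 higher, H2afj, a replication-independent variant, from 79.6 to 271 CPM (1.77). Over all 22 measured genes of the histone clusters, a set formed after values were seen, 17 were lower and 0 higher with a median of -0.90, from -1.998 in Hist1h2ap to 0.11 in Hist2h3c1. G2 and mitosis genes had 12 of 19 lower, 2 higher and a median of -0.92, with the spindle protein Tacc3 at -1.63 and Hmgb2 at -0.997 beside Top2a and Ube2c, and with the tubulins Tuba1c (0.95) and Tubb4b (0.62) higher. S phase genes had 7 of 25 lower (4 with median-of-ratios factors) and 1 higher, Pcna (0.64), which p53 also controls. The helicase subunit Mcm6 (-1.16), the ligase Lig1 (-1.29) and the reductase subunit Rrm1 (-1.01) were lower. With the sham library of 1 week as control the division count was 2 of 12 lower and 2 higher, the median was -0.20, and Pcna (0.33), Tubb4b (0.47) and Mcm6 (-0.53) were within 1.5-fold. With a minimum of 200 UMIs the division count was 5 of 11 lower with a median of -0.14, and with each cell thinned to 2000 UMIs 5 of 11 with a median of -0.18. With a minimum of 50 UMIs it was 22 of 29 lower with a median of -1.17. The size of these differences thus depended on the control and on which members passed the minimum. Thinning also left fewer members measured, so a part of depth itself cannot be read from it. The clustered histone median was -0.70 with the sham library of 1 week as control.

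Ubiquitin and proteasome genes had 0 of 43 called in either direction, splicing factors 1 of 55 higher and 1 lower, mitochondrially encoded genes 0 of 12 called, and membrane trafficking genes 3 of 51 higher, Rab7b among them, and 1 lower. Nucleolar genes had 5 of 39 higher (8 with median-of-ratios factors, 9 against the sham library of 1 week) and 0 lower with a median of 0.31, led by Gnl3, nucleostemin, at 1.52, and the abundant Npm1 and Ncl were at 0.24 and 0.57. Actin and motility genes had 5 of 60 higher and 3 lower, with the capping protein Capg at 1.85. Ion channels had 5 of 33 higher and 4 lower, with the oxidant-sensitive calcium channel Trpm2 at 1.57 and the potassium channel Kcnk12 at -1.10. Wnt and Notch genes had 1 of 25 higher and 5 lower, with Tcf7l2 at -0.78. Dissociation and immediate early genes had 4 of 35 higher and 8 lower (17 against the sham library of 1 week) with a median of -0.06, and they differed between the sham libraries by a median of 0.54.

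How far the 6 h calls went on was read from the libraries of 1 week, where 212 (2.59%) of 8198 genes were higher in irradiated cells and 166 (2.02%) lower. Of the 464 higher remaining genes that were measured at 1 week, 55 (11.9%) were higher and 24 (5.17%) lower there. Of the 624 lower ones, 26 (4.17%) were lower and 27 (4.33%) higher, while over all 7972 remaining genes measured at both times 1.96% were higher and 1.91% lower. Against the sham library of 1 week, 485 of the 601 higher remaining genes were higher and 416 of the 688 lower ones were lower. Over all 8193 genes measured in that comparison, 898 (11%) were higher and 649 (7.92%) lower. It shares the irradiated library, by which these genes were chosen, so nothing is read from the difference.

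Against the sham library of 6 h longer genes tended to lower ratios, while the shares called differed mainly at the ends of length. Genes were cut into 10 equal classes by the length of the annotated gene, 879 genes each. The median went from 0.01 in the shortest class (up to 4.33 kb) to -0.15 in the longest (from 104 kb). In the shortest class 109 genes were higher and 77 lower, and in the longest 60 were higher and 108 lower. In the classes between, 6.71% to 9.10% were higher and 5.92% to 8.99% lower, without a steady order. Shorter genes were also more abundant, with a median of 47.6 CPM in sham in the shortest class and 24.7 CPM in the longest, and the part of level in this was not tested. Between the 2 sham libraries, 1 week over 6 h, the medians of the shortest and longest class were -0.01 and -0.06, and the lowest was -0.10 in class 8. For irradiated cells at 6 h over the sham library of 1 week they were -0.01 and -0.10. There the classes between lay from -0.02 to 0.03 without a steady order, so only the longest class stood apart.

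**Figure D5:**
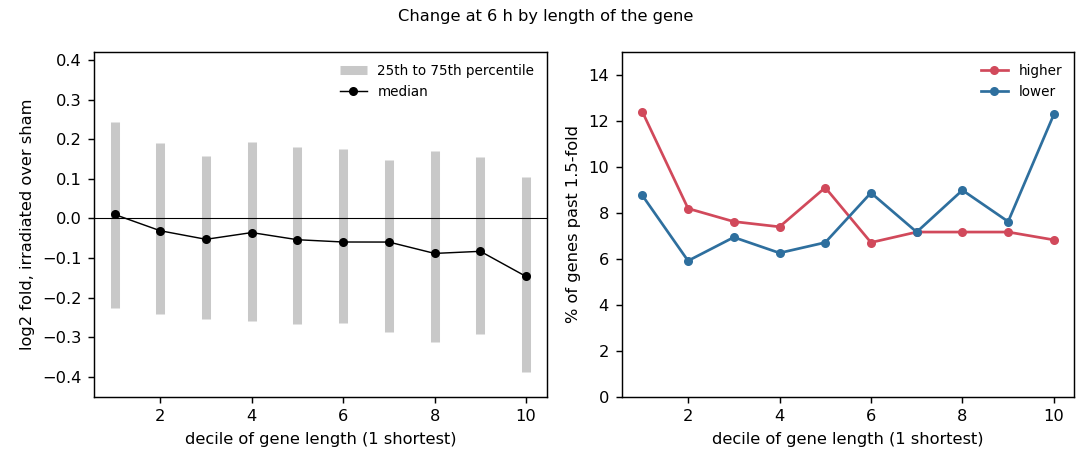
Left, median log2 ratio (points) and the 25th to 75th percentile of genes (grey bars) in 10 classes of gene length from the shortest to the longest. Right, percent of genes called higher (red) or lower (blue). The longest class has the lowest median (-0.15) and the most lower genes (12.3%), and the shortest has the most higher genes (12.4%).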

How the data were processed

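Raw UMI counts per gene and barcode were deposited by the authors for 4 libraries, 2 of them at 6 h. They were made with Cell Ranger 2.0 on mm10, per the submitters' processing notes. The annotation release, the barcode threshold and any doublet removal were not stated in any source at hand. The design text speaks of 8095 microglia. The files held 8486 barcodes, and 8369 passed the filter used here. No doublet caller was run.

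Counts were summed per library and scaled to CPM with Python 3.11.15 and scipy 1.17.1. A gene at 0 UMIs was put at a floor of 3 for its ratio. No test was possible with 1 library per group, and intervals cover counting error only. The calculation was tested on simulated data. The fixed rule named the 20 remaining genes with the highest lower bound, the 20 with the lowest upper bound, the 8 with the largest gain and loss of CPM, and per list up to 4 called members in each direction and those with the most UMIs. Some genes that this rule names are not reported here. The members, the 36 lists (1569 symbols, 40 not matched) and the 16 marker classes were chosen with earlier results of these data known. Of the tested genes 8790 were matched by identifier to GENCODE vM21 of GRCm38 (mm10) for coordinates. Scaling factors of the alternatives came from edgeR 4.0.16 in R 4.3.3 or from medians of ratios. Times other than 6 h and 1 week were not analysed here.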

Additional observations from a re-analysis of the deposited data

Results flagged for a closer look

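3 genes named by the ranking lay past 1.5-fold in one direction at 6 h and in the other at 1 week, each time in irradiated over sham cells of the same time and with the counting interval on 1 side of 0 at both. The inhibitory receptor gene Lilrb4a had a log2 ratio of 3.49 at 6 h and -1.81 at 1 week, the latter from 36 sham and 14 irradiated UMIs. The mitotic gene Ube2c had -2.42 at 6 h and 2.38 at 1 week, and Top2a had -1.86 and 4.04. With 1 library per group these differences between the times were not tested. Rab7b went from 4.89 to -1.18, but its interval at 1 week (-2.92 to 0.42) includes 0. Genes named only from lists were not screened in this way, and among them Lgals3 went from 2.56 to -2.60. The UMIs behind Top2a at 6 h came from 20 sham cells and 10 irradiated cells. The counting intervals of Top2a and Ube2c are too narrow for the sampling of cells. Between the 2 sham libraries, 1 week over 6 h, Top2a was at -2.81 and Ube2c at -1.29.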

How the results depend on the processing

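No paired analysis was possible because each group was 1 library and its replicate number pairs nothing. Each count, list median and named gene was recomputed under up to 11 alternatives, all chosen with earlier results of these data known. A 2-fold limit left 320 higher and 135 lower genes, by its own construction fewer than at 1.5-fold. Under the other 10 alternatives (cell filters, scaling, weighting and thinning of cells, barcodes with other-type markers left out, the minimum of UMIs, the control library) the counts lay between 536 and 898 higher and between 472 and 844 lower genes, within 1.5 times of 703 and 699. List medians moved most often with the sham library of 1 week as control, where 7 of 36 left the order-statistic interval of their members and 10 changed sign. Called genes that reversed, among those with 100 or more UMIs under the alternative, did so only with that control, namely Gem (-0.32), Pdia4 (0.055), Neat1 (-0.095) and H2afx (0.067), and the cause was not tested. Top2a, with 30 and 12 UMIs there and so below the minimum, was at 0.95. A further 23 of the 245 named genes measured there lost their call there, against 1 to 11 under each of the other 7 alternatives that were run on single genes. Genes with 100 to 212 UMIs were called in 10.8% (higher) and 13.8% (lower) of cases, against 7.24% and 5.82% above 1518 UMIs, and the counting intervals are widest in the first group.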

Other observations

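The set of 22 processed pseudogenes, mostly copies of ribosomal protein genes, was formed after values were seen. 13 of them (59.1%) were higher at 6 h and 0 lower, beside 7.99% higher and 7.94% lower over all genes. Their median was 0.62, from 1.47 in Rps18-ps3 to -0.27 in Gm6563, and at 1 week it was -0.52. Among the 81 ribosomal protein genes themselves 3 (3.70%) were higher (Rps27l at 1.98, Rps19 at 0.67 and Rpl6l at 0.62), 0 were lower and the median was 0.12. Rps27l, which is described elsewhere as a p53 target, went from 1783 to 5310 UMIs. Reads of these pseudogenes and of their parent genes are hard to assign, so each single value is uncertain. Gm26917, Gm42418 and AY036118, gene models on chromosome 17 that overlap ribosomal RNA repeats, were at 1.25, 1.08 and 1.32, and at 1 week at 0.66, -0.30 and -1.14.

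Zinc finger genes, also grouped after values were seen, had 7 of 190 members higher (3.68%) and 25 lower (13.2%), with a median of -0.16. Over all genes 7.99% were higher and 7.94% lower. Their median level was 15.4 CPM in sham. Of all genes with 100 to 212 UMIs 13.8% were lower, and of those with 213 to 394 UMIs 8.95%. The part of level in the zinc finger count was not tested. Solute carriers had 17 of 129 higher (13.2%) and 14 lower (10.9%). Neighbouring genes were read over all compared genes. Of 3883 pairs of compared genes at most 20 kb apart, 42 were both higher and 45 both lower, and a neighbour of a higher gene was itself higher in 15.2% of cases, a neighbour of a lower gene lower in 16.3%, while 7.12% of all genes in such pairs were called in the given direction, the share being the same for both. An example, chosen after values were seen, is Csrp1 (2.47), which lies 13887 bases from the p53 target Phlda3 (9.15). Such pairs include members of gene families and overlapping genes, whose part was not tested.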
